A study of Bos taurus with 6 samples.

Results

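bta-miR-31 is a microRNA (miRNA), a short RNA that guides a silencing complex to matching messenger RNAs and lowers their output. It was chosen by its measured read share, as 1 of the 10 most abundant of the 1028 bovine miRNAs listed in each library, so its abundance is given below as a description without a test. Its known link to the FSH (follicle-stimulating hormone) receptor and to estrogen was a further reason. Its change with heat was not a criterion, but earlier results of these data were known at the time of the choice. Bovine granulosa cells, which line the follicle and nourish the egg, were aspirated from follicles of 3 to 6 mm of slaughterhouse ovaries and grown in culture for 24 h at 37 °C. Control cells stayed at 37 °C for another 24 h and heat-stressed (HS) cells were moved to 42 °C for the same time, both in medium with serum depleted of exosomes, with 3 libraries in each group. The labels do not say which cows a library came from, or whether a replicate number stands for 1 pool of cells divided between the temperatures, so all p-values measure the spread between these libraries, which may be partly technical.

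Granulosa cells respond to follicle-stimulating hormone (FSH) through the FSH receptor, and FSH drives them to make aromatase, the enzyme that turns androgens into estrogens. miR-31 is known from work on bovine granulosa cells as a miRNA that targets the FSH receptor transcript, and it is linked to lower estrogen output. Outside the ovary it is known as a regulator of cell movement and of epithelial differentiation. The receptor, aromatase and estrogen were not measured in these libraries, which hold small RNA alone.

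In the RefSeq annotation of the bovine assembly ARS-UCD2.0 the gene, MIR31, lies within the span of IFNE, which encodes interferon epsilon. Reads were mapped to an older assembly, and positions are therefore left out. On one side the nearest protein-coding genes are MTAP, a methionine salvage enzyme, and the cell cycle inhibitors CDKN2A and CDKN2B, and on the other side follow interferon genes such as IFNT3 and IFNT2. No other miRNA gene (0) lies within 10 kb of it. The files list 1 form of miR-31, and how reads were assigned where genes overlap was not examined.

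The libraries held 2076239 to 4590971 miRNA reads, and control replicate 1 was the shallowest. Each of the 15 pairs of libraries differed by more than counting noise, the chi-square over its degrees of freedom being 37.8 to 261. No miRNA is known to mark granulosa cells alone, so the label could not be checked against a defining miRNA. miRNAs that mark other cells were present at lower levels than bta-miR-31. The 7 blood cell miRNAs summed to 730.2 to 895.4 normalised CPM in control and 676.6 to 799.8 in HS libraries. Of the 7, 5 had a mean of 10 or more and 2 a mean of 3 or less. Red-cell miR-451 did not exceed 2.65 in any library. In contrast, bta-miR-142-5p had 263 to 429 in control and 248 to 425 in HS libraries, and bta-miR-223 259 to 311 and 196 to 267. Normalised CPM are reads set against the library total and adjusted with TMM (trimmed mean of M-values) factors, which take most miRNAs as unchanged. The 2 endothelial miRNAs summed to 228.1 to 351.6 and 130.8 to 265, the 5 stromal and thecal ones to 1324 to 2083 and 2008 to 2192, and the 5 epithelial ones found, of 6 looked for, to 57.1 to 86.5 and 49.0 to 82.7, in control and HS libraries. Their part in the level of bta-miR-31 was not tested.

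bta-miR-31 was an abundant and steady component of the miRNA pool. Over all libraries it took 728560 of 21553066 reads, 25.5 times what each of the miRNAs with a read would have had if reads were spread evenly. Its share of the reads of a library was 3.67%, 3.55% and 3.30% in control replicates 1, 2 and 3. In HS replicates 1, 2 and 3 the share was 3.23%, 3.48% and 3.17%. Control replicate 1 was the highest and HS replicate 3 the lowest, and the groups overlapped, since HS replicate 2 lay above control replicate 3. The whole range was 1.16-fold from the lowest to the highest library. By counting alone the shares were known closely, with a 95% Wilson interval of 3.64% to 3.69% for control replicate 1, the shallowest library. A share of reads compares miRNAs as sequenced, without correction for length or for how well each is captured by adapter ligation.

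**Figure D1:**
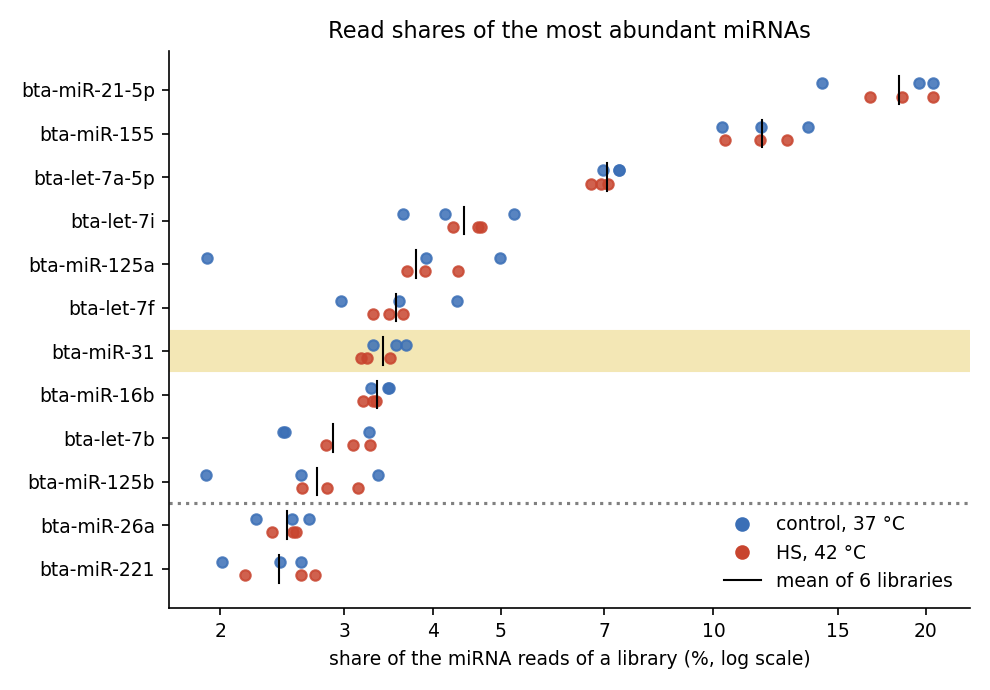
Share of the miRNA reads of each library (%, log axis) for the 10 most abundant miRNAs (above the dotted line) and the next 2, with 1 point per library (blue control, red HS) and a bar for the mean of 6 libraries. bta-miR-31 (shaded) sits between 3.17% and 3.67% in every library, while bta-miR-125a ranges from 1.92% to 4.99%.

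Ranked by reads, bta-miR-31 was at 5, 6 and 8 in control replicates 1, 2 and 3 and at 8, 6 and 8 in the HS libraries. By its mean share of 3.40% ± 0.196 (SD, n = 6) it stood at place 7. The limit of the first 10 fell between bta-miR-125b with 2.74% and bta-miR-26a with 2.49%, well below it. Above bta-miR-31 stood bta-miR-21-5p, known as a survival miRNA of granulosa cells, then bta-miR-155, 3 members of the let-7 family (bta-let-7i, bta-let-7f and, highest, bta-let-7a-5p) and bta-miR-125a. The nearest neighbours in this order were not separable from it. bta-let-7f averaged 3.55%, yet bta-miR-31 was above it in 2 of 6 libraries. bta-miR-16b averaged 3.33%, and bta-miR-31 was above it in 3 of 6. Further down, bta-miR-31 exceeded bta-let-7b in 6 of 6 libraries, by 0.144 to 1.09 percentage points. Further up, bta-miR-125a was above bta-miR-31 in 5 of 6 libraries and was at 1.92% in the other one, control replicate 2. bta-let-7i was also above it in 5 of 6, and in control replicate 1 it was at 3.63% against 3.67% for bta-miR-31. bta-miR-31 was below bta-let-7a-5p in 6 of 6, with differences of -3.80 to -3.54 points.

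To determine whether HS altered bta-miR-31, normalised CPM were compared between the groups. The values were 37159, 35033 and 32804 in control replicates 1, 2 and 3. In HS replicates 1, 2 and 3 they were 33469, 34543 and 30983. The groups overlapped, since HS replicates 1 and 2 both exceeded control replicate 3. Means were 34998 ± 2178 for control cells against 32998 ± 1826 for HS cells (SD, n = 3 each).

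bta-miR-31 did not pass any threshold for a change with HS. The log2 fold change was -0.08 ± 0.087 (SE, limma adjusted p = 0.792 over the 365 miRNAs tested), or -5.69% with a 95% interval of -18.2% to 8.72%. The fit thus leaves room for a modest fall or a small rise, and a missed threshold does not show that the level stayed the same. In the same fit 11 of 365 miRNAs (3.01%) passed the study's thresholds, which are 0.2 for the adjusted p and 1 for the size of the log2 fold change. At an adjusted p under 0.05 there were 8 (2.19%), and at an adjusted p of at most 0.2 with any fold change 26 (7.12%). The count of 8 was not stable. Upper quartile factors gave 5 and DESeq2 21, and it was 2 without control replicate 3, HS replicate 2 or HS replicate 3, 4 without HS replicate 1, 5 without control replicate 2 and 12 without control replicate 1. The size of the change of bta-miR-31 was below the median size of 0.2 over all tested miRNAs, with 24.7% of them changing less. As these are cell extracts, fewer cells with the miRNA and less miRNA per cell cannot be told apart.

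The share of reads likewise passed no threshold, averaging 3.50% ± 0.188 for control against 3.29% ± 0.166 for HS (SD, n = 3 each). The groups differed by -0.21 percentage points (exact two-sided permutation test, p = 0.2, where 0.1 is the smallest p possible). Without control replicate 1 the log2 fold change was -0.040, and without HS replicate 3 also -0.040, while upper quartile scaling gave -0.27 and moved the median of all tested miRNAs to -0.18.

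**Figure D2:**
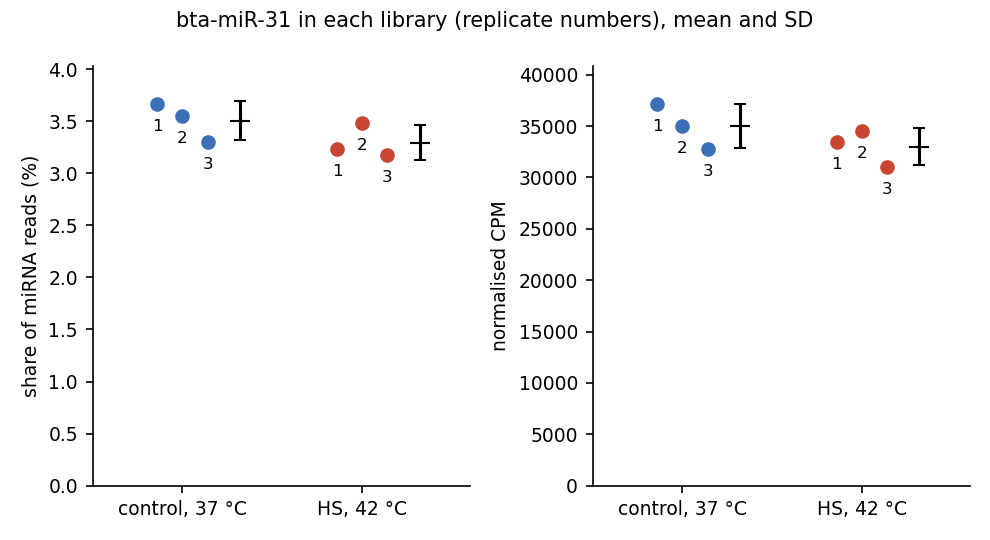
Share of miRNA reads (%, left) and normalised CPM (right) of bta-miR-31 in each library, numbered by replicate, with the mean and SD of each group (n = 3) as a bar beside the points; both axes start at 0. The control values of 32804 to 37159 normalised CPM overlap the HS values of 30983 to 34543.

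Whether bta-miR-31 moved relative to other miRNAs was examined with ratios within each library, which do not depend on how libraries are scaled. Against bta-miR-361, the reference that the study used for droplet PCR, it was 9.28, 10.5 and 8.94 times as high in control replicates 1, 2 and 3. In the HS libraries the ratio was 10.5, 10.1 and 10.2 in the same order. The HS ratios lay close together, and control replicate 2 fell among them while the other controls lay below. The mean log2 ratio was 0.10 higher in HS cells (p = 0.3 in a two-sided exact permutation test that cannot go below 0.1). bta-miR-361 itself had a log2 fold change (limma) of -0.19 ± 0.114 (SE, adjusted p = 0.539), lower than that of bta-miR-31. It was -0.37 with upper quartile factors and -0.12 without control replicate 1.

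The sign of this difference turned with the reference. Against bta-miR-103 the log2 ratios were 1.26, 1.38 and 1.34 in control replicates and 1.23, 1.12 and 1.16 in HS replicates 1, 2 and 3. Here the groups did not overlap, and the difference was -0.16 (exact two-sided permutation test, p = 0.1, the smallest possible). Among all tested miRNAs, 20% (73 of 365) had no overlap between the groups in normalised CPM. The like share for ratios to bta-miR-103 was not examined. Against bta-let-7a-5p the difference was -0.024 (p = 0.6 in the same exact test). Against the geometric mean of the others of the 10 most abundant miRNAs it was -0.15 (p = 0.2 in the same exact test). bta-miR-103, bta-let-7a-5p and bta-miR-361 are references in general use for miRNA PCR, and among these 3 the log2 difference of bta-miR-31 was positive with bta-miR-361 and negative with the others.

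**Figure D3:**
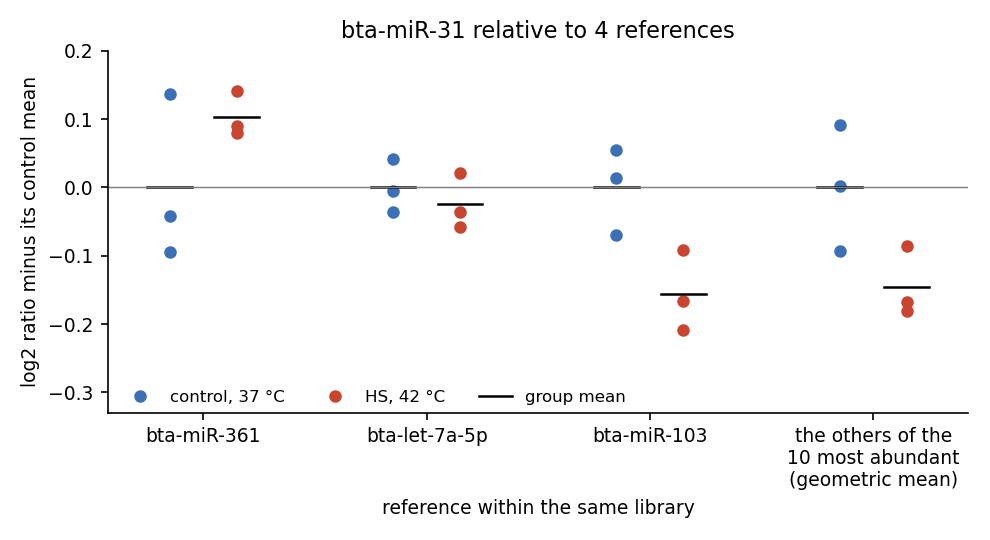
log2 ratio of bta-miR-31 to each of 4 references in the same library, minus the control mean of that ratio, with 1 point per library (blue control, red HS) and a bar for each group mean. HS points lie 0.10 above the control mean on average for bta-miR-361, and 0.16 below it for bta-miR-103, the one reference for which the groups do not overlap.

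bta-miR-31 varied little between replicates. The SD of its log2 values was 0.090 in control and 0.081 in HS cells, or 0.085 pooled over both groups, against a median of 0.266 over all 365 tested miRNAs, of which 5.75% varied less. Among the 20 tested miRNAs with a mean of 10000 normalised CPM or more, 6 had a smaller SD. Within the first 10 by abundance, bta-miR-16b (0.051) and bta-let-7a-5p (0.061) varied less, and bta-miR-125a (0.527) and bta-miR-125b (0.318) varied most. The spread of bta-miR-31 was 20.2 times the counting error expected from its reads, which lay between 0.249% and 0.362% per library.

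**Figure D4:**
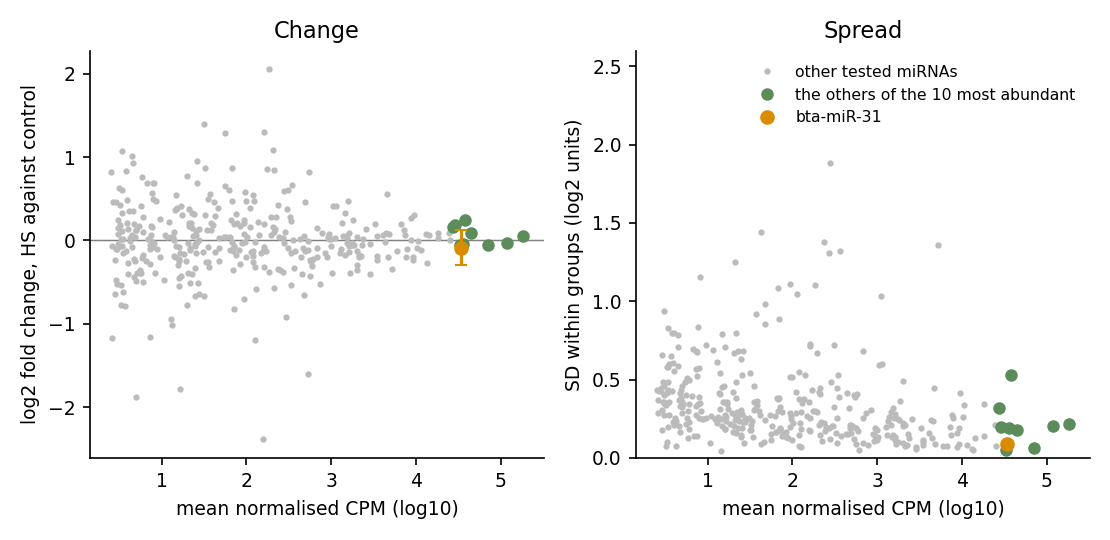
Left, log2 fold change (HS against control) and right, pooled SD within groups (log2 units), each against the mean normalised CPM (log10) of 365 tested miRNAs, with bta-miR-31 in orange (95% interval of its fold change on the left), the others of the 10 most abundant in green and the rest in grey. bta-miR-31 lies at -0.08 on the left and at 0.085 on the right, near the lower edge of the spread.

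The others of the first 10 gave no call either. Over all 10, 5 were lower and 5 higher in HS cells, log2 fold changes ran from -0.08 for bta-miR-31 to 0.25 for bta-miR-125a, and limma adjusted p-values from 0.656 to 0.964 (0 of 10 at 0.2 or less, against 7.12% of all tested miRNAs).

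The course of bta-miR-31 over the 6 libraries was compared with that of 160 other tested miRNAs with a mean of 100 normalised CPM or more, by Pearson's r of log2 values, as a description without a test. The miRNAs share libraries and depth, and over so few points high values arise among many candidates. The 5 most alike were bta-miR-532 (r = 0.975), bta-miR-491 (0.958), bta-miR-331-3p (0.957), bta-let-7a-5p (0.931) and bta-let-7e (0.919), and no other reached 0.9. The median r was 0.0886, and 2 miRNAs lay at -0.9 or lower. bta-miR-532 placed the libraries in exactly the order of bta-miR-31 (Spearman's rho = 1), with 1461, 1377 and 1223 normalised CPM in control and 1312, 1368 and 1114 in HS replicates 1, 2 and 3. Like bta-miR-31 it was highest in control replicate 1 and lowest in HS replicate 3. With the group means removed, bta-miR-532 still stood at place 3 (r = 0.982), and the first place went to bta-miR-378 (r = 0.987), a miRNA known to target aromatase. Its r over all variation was 0.686. That r was lower for the other miRNAs of the FSH receptor and estrogen list below that entered this comparison. They were bta-miR-320a (0.0309), bta-miR-224 (-0.178), bta-miR-202 (-0.432), bta-miR-132 (-0.529) and bta-miR-34a (-0.724).

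Other miRNAs known from granulosa cells for the FSH receptor, aromatase or estradiol output were examined beside bta-miR-31. Of 12 such miRNAs, 11 passed the filter on low reads, and 1 was higher and 0 lower in HS cells at a limma adjusted p of at most 0.2, against 7.12% of all tested miRNAs. None (0) passed the study's thresholds. The median log2 fold change of the 11 was 0.013, beside -0.0015 over all tested miRNAs. Groups without overlap were found for 3 of the 11, bta-miR-320a, bta-miR-34a and bta-miR-375, beside 20% of all tested miRNAs.

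bta-miR-143, the other miRNA known to target the FSH receptor in bovine granulosa cells, was scarce, with 58.1, 79.5 and 64.6 normalised CPM in control and 64.4, 61.2 and 59.4 in HS replicates 1, 2 and 3. bta-miR-31 was 527 times as high in mean normalised CPM. The groups of bta-miR-143 overlapped, with a log2 fold change (limma) of -0.12 ± 0.177 (SE, adjusted p = 0.853). Its sign was not stable, with values from -0.22 to 0.0077 in the fits without 1 library, and upper quartile factors gave -0.30. bta-miR-143 also belongs to the stromal and thecal markers above.

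Among the miRNAs tied to estrogen output, bta-miR-320a, known to repress E2F1 and SF-1 and to lower estradiol, had 4552, 3504 and 3127 normalised CPM in control and 5806, 5842 and 4706 in HS replicates 1, 2 and 3. The HS libraries all lay above the controls. Its log2 fold change was 0.56 ± 0.17 (SE, limma adjusted p = 0.199), just inside the threshold of 0.2. The fold change was positive in every fit run, from 0.37 to 0.59 with all libraries kept and from 0.44 to 0.71 without 1 library. The call was lost with upper quartile factors (log2 fold change 0.37, adjusted p = 0.412), a pseudocount of 0.5 (0.56, adjusted p = 0.204), no filter (0.56, adjusted p = 0.275), edgeR's exact test (0.55, adjusted p = 0.283), and in 5 of 6 fits without 1 library, where the adjusted p went up to 0.512. Without control replicate 1 it was 0.0608.

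bta-miR-34a, which is known to target the inhibin subunit INHBB, had 1137, 1570 and 1267 normalised CPM in control and 1585, 1699 and 2256 in HS replicates 1, 2 and 3. The groups did not overlap, but the log2 fold change of 0.48 ± 0.187 (SE) missed the threshold (limma adjusted p = 0.306), and it was 0.29 with upper quartile factors. bta-miR-378, known to target aromatase, averaged 1995 ± 117 normalised CPM for control against 2053 ± 144 for HS, and bta-miR-224, a SMAD4-targeting miRNA induced by TGF-beta, 761.1 ± 43.4 and 808.3 ± 42.4 (SD, n = 3 each). The gonadotropin-induced bta-miR-132 had 992 ± 84.3 and 1000 ± 72.8. None of these 3 passed the threshold, with log2 fold changes of 0.04, 0.09 and 0.01. With upper quartile factors they were -0.15, -0.099 and -0.17, beside a median of -0.18 over all tested miRNAs under that scaling, so relative to the median they stayed at or above it. Without 1 library bta-miR-224 was positive in 6 of 6 fits, while bta-miR-378 was negative without control replicate 3, and bta-miR-132 without control replicate 2 or HS replicate 3. bta-miR-202, a gonadal miRNA, varied widely, from 1346 to 2749 normalised CPM in control and from 1309 to 2095 in HS libraries. bta-miR-212 averaged 34.2 normalised CPM, bta-miR-145 9.49, bta-miR-383 8.33 and bta-miR-375 5.0, all without a call. bta-miR-133b was too low for the test, its reads being 0, 0 and 2 for control against 1, 3 and 4 for HS. bta-miR-31 was 7.41 times as high as the most abundant of these miRNAs, bta-miR-320a.

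**Figure D5:**
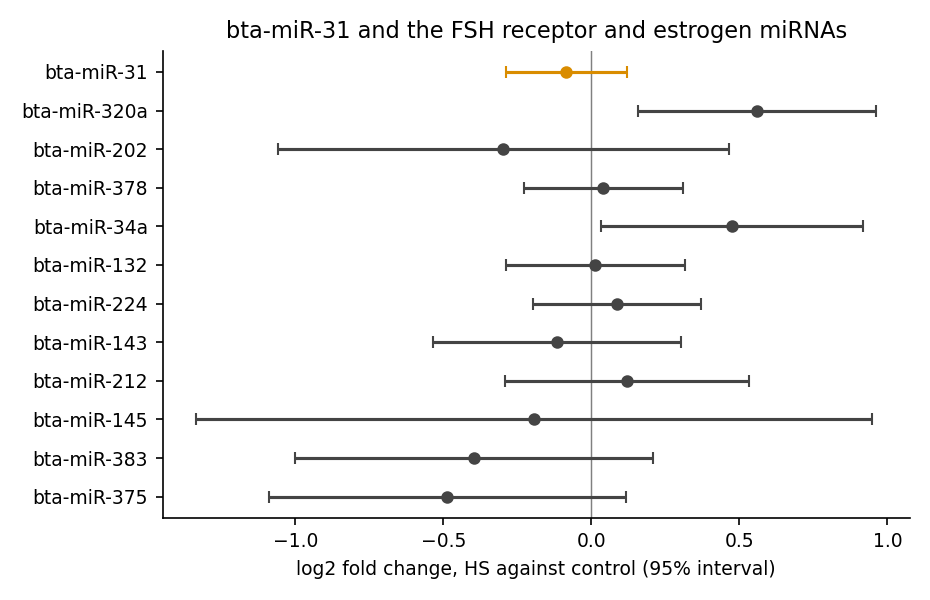
log2 fold change (HS against control) with its 95% interval from limma for bta-miR-31 (orange) and the 11 tested miRNAs known for the FSH receptor or estrogen output (dark grey), ordered by mean level. The interval of bta-miR-31, from -0.29 to 0.12, is the narrowest shown, and those of bta-miR-320a and bta-miR-34a lie above 0.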

How the data were processed

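Small RNA libraries were made from 100 ng of RNA with unique molecular identifiers and 16 PCR cycles. According to the methods and processing notes, the authors trimmed reads with cutadapt 1.11, collapsed identical identifiers, mapped with Bowtie2 2.2.2 (genome build UMD3.1), assigned reads to miRBase and applied TMM scaling. The authors thus deposited a signal in units of CPM after TMM scaling. Treatment of reads shared by near-identical miRNAs is not given in the sources used here.

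All deposited values (100%) were whole multiples of a step per library (tolerance 0.01 of a read), which gave the reads. The implied TMM factors were 0.965 to 1.02. limma 3.58.1 (lmFit, eBayes with trend, R 4.3.3) was run on log2(normalised CPM + 1) of miRNAs passing filterByExpr in edgeR 4.0.16, with Benjamini-Hochberg adjustment, after the fit had been tested on simulated reads. Fold changes are on this scale, which understates low miRNAs. Shares and ratios were compared with exact permutation tests (scipy 1.17.1). Intervals on shares cover counting error only.

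bta-miR-31, the 12 estrogen miRNAs, the marker lists and the rule for naming miRNAs (bta-miR-31, the 10 most abundant, bta-miR-361, that list and the 5 most alike) were chosen with earlier results of these data known. Alternatives covered scaling, pseudocount, filter, test (edgeR, DESeq2 1.42.0, limma-voom), the replicate block and each library left out.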

Additional observations from a re-analysis of the deposited data

How the results depend on the processing

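The log2 fold change of bta-miR-31 stayed negative and past no threshold under all 13 alternatives that kept every library, from -0.27 with upper quartile factors to -0.058 with TMM factors recomputed (chosen after seeing the data), with adjusted p-values of 0.412 to 1. Without 1 library it ran from -0.13 to -0.040. The share difference ran from -0.23 to -0.21 percentage points, and from -0.31 to -0.13 without 1 library. The log2 ratio to bta-miR-361 (0.10, or 0.056 to 0.17 without 1 library) changed sign with bta-let-7a-5p (-0.024), bta-miR-103 (-0.16) and the others of the 10 most abundant (-0.15) as reference. The labels share replicate numbers, but same-numbered libraries deviated together in replicates 1 and 3 and not in 2 (r = 0.421, 0.616 and -0.117), so the numbers were not taken as pairs. The replicate block gave bta-miR-31 an adjusted p of 0.616, gave 10 and 6 calls in place of 11 and 8, and changed no call of the estrogen miRNAs or bta-miR-361. Paired by number, 3 of 3 pairs had a lower share in HS, and lower ratios to bta-miR-103 and to the others of the 10 most abundant (each exact sign-flip test, p = 0.25, the smallest possible), and 1 of 3 a lower ratio to bta-miR-361 (exact p = 0.5) and to bta-let-7a-5p (exact p = 1).

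The 8 miRNAs at an adjusted p under 0.05 became 5 with upper quartile factors, 14 with edgeR's exact test and 21 with DESeq2, and 2 to 12 without 1 library. Higher in HS were 3 of 8, 0 of 5, 4 of 14 and 8 of 21. The 11 at the study's thresholds ran from 8 to 12, and from 8 to 16 without 1 library, where 16 came without control replicate 1. With upper quartile factors 2 of 11 were higher, against 4 of 11. The 1 call among the estrogen miRNAs, bta-miR-320a, became 0 with upper quartile factors, a pseudocount of 0.5, no filter or edgeR's exact test, and 0 to 1 without 1 library. Upper quartile factors turned bta-miR-378 (-0.15), bta-miR-224 (-0.099), bta-miR-132 (-0.17) and bta-miR-212 (-0.061) negative, beside a median of -0.18. Without 1 library the log2 fold changes ran from -0.056 to 0.066 for bta-miR-132, -0.22 to 0.0077 for bta-miR-143, -0.61 to 0.25 for bta-miR-145 and -0.0039 to 0.098 for bta-miR-378. The cause was not tested. Of the 5 miRNAs most like bta-miR-31, 4 were among the first 5 by Spearman's rho, 3 with a minimum of 1000 normalised CPM, which leaves fewer candidates, and 1 with group means removed.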
